A study of Mus musculus with 14 samples.

Results

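The comparison concerns mouse embryonic fibroblasts on day 5 of reprogramming, with Cdk9-DN or with its control vector. It takes the 4 libraries of that day out of the 14 of the study, 2 per vector, and sets them against each other over every gene that both vectors list. These were 24298 of the 26962 genes listed in any library, of which 5902 could be tested. The fibroblasts were of strain OG2/129SV and, in both groups, were transduced with Oct4, Sox2, Klf4 and c-Myc. The control group also carried a control vector, and the other group Cdk9-DN, a construct named as dominant-negative Cdk9. Both groups grew in medium for embryonic stem cells that contained LIF and were collected 5 days after infection, and libraries of days 3 (1 per vector), 4 and 10 (2 per vector each) serve as comparison. The labels do not state whether replicates came from separate cultures. The p-values therefore reflect the spread among these libraries alone, which may be technical. Each library is a bulk population, in which fewer cells of a type and less RNA per cell cannot be told apart.

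Cdk9 and a cyclin T form P-TEFb, the kinase that releases RNA polymerase II from its pause a short way into a gene. Most P-TEFb is held inactive by Hexim proteins on a small nuclear RNA that Larp7 stabilises. Paused polymerase is common at immediate early genes and at genes of developmental signalling, and the series asked by its title whether release from the pause limits reprogramming. In fibroblasts that take up the reprogramming factors, mesenchymal genes are known to be shut down early, epithelial genes to come up next and the pluripotency network to come up last.

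The deposited unit is FPKM, in which the fragments of a gene are divided by its length and by the depth of the library. A difference is the log2 difference of Cdk9-DN minus control on the log2(FPKM + 1) scale, which understates the change of low genes. Pairs of values name the control libraries first and the Cdk9-DN libraries second, each in the order of replicates 1 and 2. Depth implied by the deposited bounds was 8.79 to 12.4 M fragments in the 4 libraries. Control replicate 2 had the least, and stood apart in composition, with 76.1% of its summed FPKM in its 10 highest genes (40.4% to 66.1% in the other libraries of day 5). Cdk9, Ccnt1, Ccnt2, Pou5f1 and Klf4 were listed in 0 libraries under these symbols and were not analysed here, so Cdk9-DN itself was not checked. Sox2 stood at 489 FPKM (control replicate 2) and 501 FPKM (Cdk9-DN replicate 2), and Myc at 819 and 844 FPKM (control) against 778 FPKM (1 Cdk9-DN library), transduced and endogenous transcripts together. Fibroblast markers were present in both groups, among them Thy1 at 60.5 and 59.5 FPKM (control) and 65.8 and 68.6 FPKM (Cdk9-DN). The summed level of the macrophage and blood list was 2.87 to 4.37 FPKM over 14 genes, that of the endothelial list 0.317 to 0.558 FPKM over 4 genes, and that of the endoderm and mesoderm list 3.46 to 3.77 FPKM over 10 genes. Of these lists, 5, 3 and 7 genes were at 0 in every library of day 5 that listed them.

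At day 5 few genes could be called as different between the vectors. Of 5902 genes tested with limma, 10 (0.169%) passed at an adjusted p under 0.05, 4 of them higher (0.0678%) and 6 lower (0.102%) with Cdk9-DN. In 8 of the 10 genes both libraries of one vector were listed at exactly 0. The named genes that remain are Ramp3, a partner protein of the calcitonin receptor-like receptor, and, chosen here after its values were seen, the processed pseudogene Gm16056. Without genes that any day 5 library listed at 0, limma called 0 of 5115 genes, and 445 had an unadjusted p under 0.05.

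An unadjusted p under 0.05 was reached by 495 genes (8.39%), 186 higher (3.15%) and 309 lower (5.24%). With libraries rescaled on genes of at least 300 bases the split was 184 higher and 170 lower. Most differences were small. Among 1581 protein-coding genes of at least 5 FPKM with no vector at 0, 40 (2.53%) differed by 0.5 or more on the log2 scale, 16 of them higher and 24 lower. Over genes with at least 100 implied fragments in the libraries compared, the median absolute log2 difference between vectors was 0.0856 (1361 genes). It was 0.0791 between the control replicates (1818 genes) and 0.0725 between the Cdk9-DN replicates (1907 genes). The value between vectors compares means of 2 libraries, those between replicates single libraries, over different genes. Means vary less than single libraries, so these values are not on a like footing. With 2 libraries against 2, an exact permutation test of a single gene cannot go below a two-sided p of 0.333, so the calls rest on the spread that limma shares over the 12 libraries of days 4, 5 and 10.

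**Figure D1:**
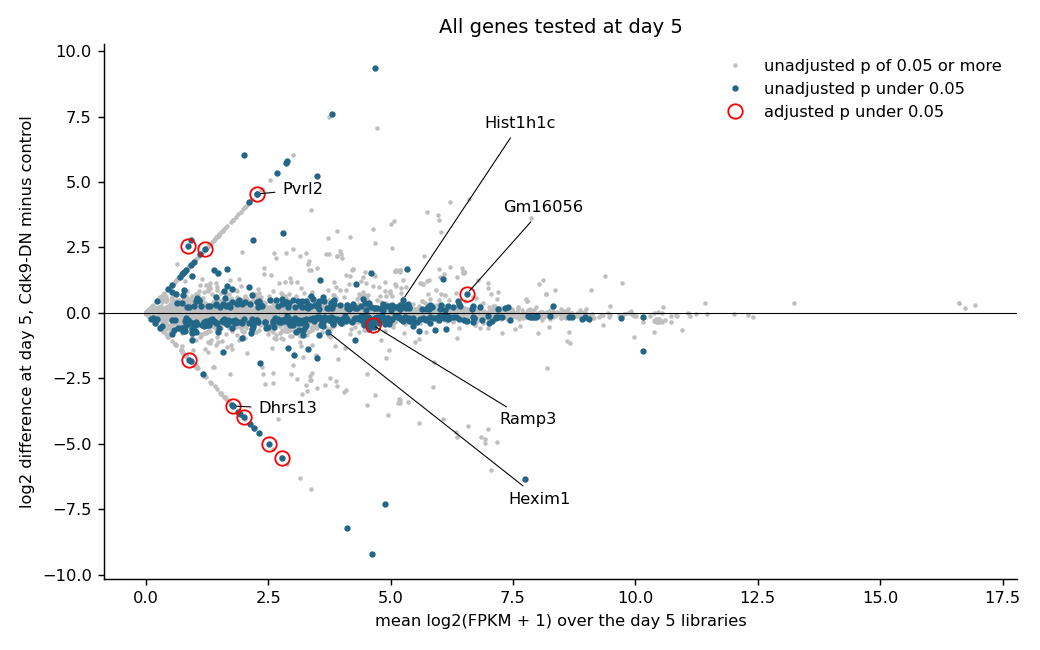
Log2 difference at day 5 (vertical axis, Cdk9-DN minus control) of the 5902 genes tested against their mean log2(FPKM + 1) over the day 5 libraries (horizontal axis, 1 point per gene). Red circles mark the 10 genes with an adjusted p under 0.05, of which 8 lie on the diagonals formed by genes with both libraries of one vector at 0.

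Hexim1, the inhibitor of P-TEFb, lay lower with Cdk9-DN at day 5 but missed the threshold. Hexim1 (chromosome 11, 102977639 to 102981039, mm9) stood at 16.8 and 15.4 FPKM in the control libraries and at 8.99 and 9.47 FPKM in the Cdk9-DN libraries. The groups did not overlap, and the Cdk9-DN mean was 0.573 times the control mean. The difference was -0.74 (SE 0.0877, adjusted p = 0.0614), with at least 329 implied fragments behind each value. It passed with median-of-ratios scaling (adjusted p = 0.0354) and among protein-coding genes alone (0.0173), and over all settings tried the adjusted p ran from 0.0173 to 0.636 with the same sign. On the other days the Cdk9-DN values were also the lower ones, at 10.9 against 17.4 FPKM in the single libraries of day 3, 10.5 and 10.5 against 15.4 FPKM (1 control library) at day 4, and 11.1 and 11.6 against 14.7 and 12.3 FPKM at day 10. The difference narrowed from day 5 to day 10 by 0.52 (SE 0.125, adjusted p = 0.0413), a test that uses the day 5 libraries again.

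The 250 bases before the Hexim1 start are shown with those of Ramp3, the called protein-coding gene with values in every library. They come from RefSeq promoter windows on GRCm38.p6, a later build than that of the deposited tables, at chr11:103116075-103116324 and chr11:6658283-6658532, both on the plus strand. Capitals mark matches, on either strand, to the GC box, with the letters GGGCGG, or to the ETS motif, searched as CCGGAAG. The other motifs searched were the TATA box as TATAAA, the AP-1 motif as TGACTCA and the E-box as CACGTG.
Hexim1: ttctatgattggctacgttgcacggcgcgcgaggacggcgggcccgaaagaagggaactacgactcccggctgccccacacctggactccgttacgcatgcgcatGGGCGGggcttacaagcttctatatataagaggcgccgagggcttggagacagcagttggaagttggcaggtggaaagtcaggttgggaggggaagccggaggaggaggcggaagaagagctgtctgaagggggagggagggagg
Ramp3: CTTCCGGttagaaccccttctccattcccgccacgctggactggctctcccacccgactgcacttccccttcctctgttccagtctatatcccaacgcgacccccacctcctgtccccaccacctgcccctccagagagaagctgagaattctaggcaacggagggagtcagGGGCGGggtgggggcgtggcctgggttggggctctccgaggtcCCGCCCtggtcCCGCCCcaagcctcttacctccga
The Hexim1 window held 1 GC box, 139 bases before the start, and no exact match to the letters of the other motifs. The stretch tatatata in it is not counted by the search for TATAAA. That of Ramp3 held 3 GC boxes and 1 ETS match. GC boxes were found in 32.7% of the 32851 promoter windows of the table and in 54.9% of the 2477 windows of genes tested here.

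Of the other genes of pausing and elongation, 12 more were listed at day 5 and 7 of these tested. None of the 8 tested was called, 2 had an unadjusted p under 0.05, both lower (Hexim1 and Larp7), and the median was -0.10, against -0.0245 over all genes tested. Larp7, which binds and stabilises the small nuclear RNA of the inactive P-TEFb complex, had 31.1 and 31.6 FPKM (control) against 27.4 FPKM in the 1 Cdk9-DN library that lists it (-0.19, adjusted p = 0.573). Leo1, a subunit of the Paf1 complex that travels with elongating polymerase, stood at 27.5 and 26.0 FPKM against 26.1 and 24.3 FPKM. Ell2, an elongation factor of the super elongation complex, stood at 5.11 and 5.30 against 5.48 and 5.65 FPKM. The differences of Leo1 and Ell2 were -0.08 and 0.08. For most P-TEFb partners, the negative elongation factor and the Spt factors no value was used.

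Ramp3 was the one named protein-coding gene without zeros that passed. Its control libraries stood at 27.8 and 28.4 FPKM and its Cdk9-DN libraries at 19.5 and 20.7 FPKM. The groups did not overlap, which the rule for named genes required. Ramp3 was lower with Cdk9-DN by -0.47 on the log2 scale (SE 0.0551, adjusted p = 0.0374). The call held in 7 of the 16 other settings, and the difference kept its sign in each. It ended when any single day 5 library was left out (adjusted p = 0.074 to 0.177), when genes at 0 were removed (0.101), with quantile normalization (0.0907), with rescaling on genes of at least 300 bases (0.0512), with only the day 5 libraries (0.275) and with a replicate block (0.445). At day 4 Ramp3 stood at 16.1 and 17.9 against 12.7 and 12.3 FPKM. In control cells it rose between days 4 and 10 (2.71, adjusted p = 2.28e-07), and at day 10 it stood at 119 and 116 against 121 and 119 FPKM, a difference of 0.04. The difference at day 10 exceeded that of day 5 by 0.51 (adjusted p = 0.00653).

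Other named genes on the low side missed the threshold. In 5 of the 7 described next, as in Ramp3, the control values of day 5 lay above those of day 4. Pcsk1n, the precursor of a prohormone convertase inhibitor, had 14.8 and 15.1 against 4.09 and 6.52 FPKM (-1.37, SE 0.233, adjusted p = 0.214). Its day 4 values were 4.76 FPKM in 1 control library against 1.53 and 2.74 FPKM with Cdk9-DN. Capn6, a calpain, had 12.4 and 13.8 against 9.07 and 9.10 FPKM (-0.48, adjusted p = 0.141). Its day 4 libraries had 8.27 and 8.56 against 5.92 and 5.83 FPKM, a difference of -0.45, so Capn6 was already lower with Cdk9-DN then. The day 5 effect minus the day 4 effect was -0.03.

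Krt8, a keratin of simple epithelia, had 15.6 and 15.5 against 11.04 and 11.3 FPKM (adjusted p = 0.294), after 6.93 and 7.19 FPKM in the control libraries of day 4. Reep1, which shapes the endoplasmic reticulum, had 6.15 FPKM in 1 control library against 3.57 and 4.03 FPKM, and Shisa3, which retains Wnt and FGF receptors in that compartment, 7.01 and 7.53 against 5.30 FPKM in 1 Cdk9-DN library. Both were lower with Cdk9-DN at day 4 too, Reep1 at 3.61 and 3.82 against 2.70 and 2.84 FPKM. Shisa3 had 2.99 and 3.24 against 2.06 and 2.03 FPKM then. In the other 2 the control values of day 5 were not above those of day 4. Gpx7, a glutathione peroxidase of the endoplasmic reticulum, had 27.04 and 26.95 FPKM against 18.9 and 19.03 FPKM at day 5, and 29.0 and 27.3 FPKM in control at day 4. Marcksl1, an actin-binding protein, had 107 and 101 against 80.4 and 86.5 FPKM, and near the same values at day 4 (107 and 100 against 81.8 and 84.9 FPKM). In each of these genes the day 5 groups did not overlap, which the rule that named them required.

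**Figure D2:**
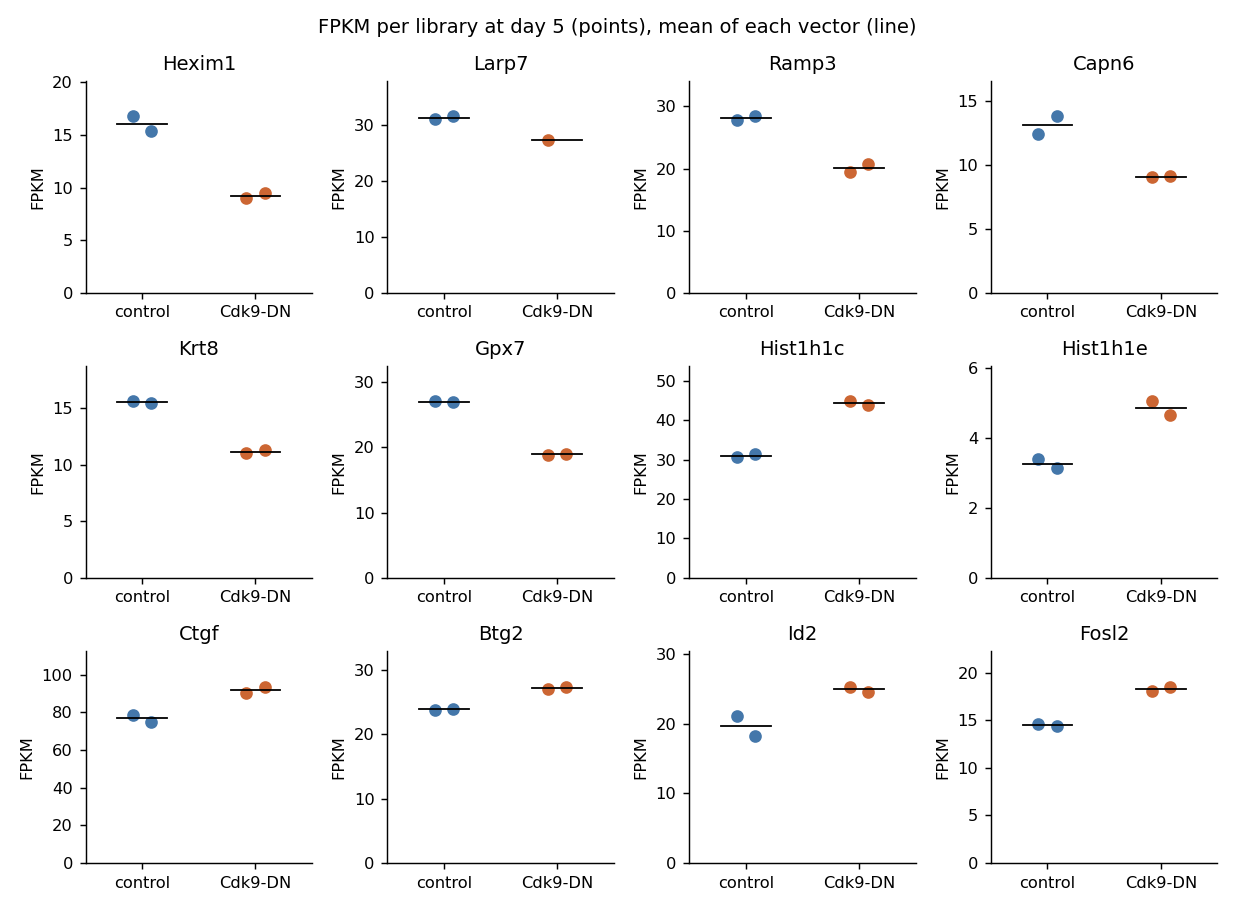
FPKM of 12 genes in each library of day 5 (points, vertical axis from 0), control left and Cdk9-DN right, with the mean of each vector as a line. The groups do not overlap in any of the 12 genes shown, which were chosen from those with an unadjusted p under 0.05; Larp7 has 1 Cdk9-DN library.

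Linker histone genes, whose proteins bind DNA between nucleosomes, lay on the high side. None of the 4 tested was called, 3 had an unadjusted p under 0.05, all higher, and the median was 0.42. Hist1h1c (chromosome 13, 23830676 to 23832235, mm9) stood at 30.7 and 31.3 against 44.8 and 43.8 FPKM (0.50, SE 0.0602, adjusted p = 0.0614). Hist1h1e stood at 3.40 and 3.13 against 5.05 and 4.66 FPKM (0.46, SE 0.081, adjusted p = 0.195) on 16 to 36 implied fragments. In both genes each Cdk9-DN library exceeded each control library. Hist1h1c passed only among protein-coding genes (adjusted p = 0.0203 and, without genes at 0, 0.0227).

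Among 51 core histone genes tested, 0 were called, 7 had an unadjusted p under 0.05 with higher values and 1 with lower values, and the median was 0.09. Hist1h2bc stood at 29.3 and 27.5 against 34.6 and 35.8 FPKM (0.30, adjusted p = 0.175). The 1 on the low side was Hist1h2ab, at 8.80 and 9.40 against 7.34 and 7.45 FPKM. Histone genes are near-identical copies, between which the authors' counting could have split reads. Their messages mostly lack a poly(A) tail, and their level is known to follow S phase. All 9 members of the S phase list that were tested had negative differences (median -0.09, lowest -0.91), with 0 called and 0 at an unadjusted p under 0.05. The median over all genes tested was itself -0.0245. Mcm2 (-0.03) turned positive with quantile normalization (0.0031) and with rescaling on genes of at least 300 bases (0.0052). Mcm4, a subunit of the replicative helicase, had 44.9 and 46.2 against 45.2 and 41.8 FPKM, so its groups overlapped.

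The promoter windows of the linker histone genes with non-overlapping groups lie at chr13:23738557-23738806 on the plus strand (Hist1h1c, listed by RefSeq as H1f2) and chr13:23622559-23622808 on the minus strand (Hist1h1e, listed as H1f4), on GRCm38.p6, with capitals as above.
Hist1h1c: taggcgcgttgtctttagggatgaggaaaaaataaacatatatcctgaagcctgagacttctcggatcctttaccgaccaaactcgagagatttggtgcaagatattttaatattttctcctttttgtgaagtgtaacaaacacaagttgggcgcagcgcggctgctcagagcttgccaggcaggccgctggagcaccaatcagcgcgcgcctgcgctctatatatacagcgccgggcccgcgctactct
Hist1h1e: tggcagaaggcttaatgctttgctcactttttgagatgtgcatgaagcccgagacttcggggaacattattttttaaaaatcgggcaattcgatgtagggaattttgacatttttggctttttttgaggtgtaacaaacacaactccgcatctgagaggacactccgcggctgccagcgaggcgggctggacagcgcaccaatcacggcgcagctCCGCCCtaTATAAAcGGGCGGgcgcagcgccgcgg
The Hist1h1e window held a TATA box 21 bases before the start between 2 GC boxes, and that of Hist1h1c no exact match to the letters of the 5 motifs. The Hist1h1c window does hold the stretch tatatata, which the search for TATAAA does not count. A TATA box was found in 12.4% of all windows and 9.73% of those of genes tested. Among genes with an unadjusted p under 0.05 it was found in 12.6% of the 119 windows of those with higher values and 10.1% of the 148 of those with lower values. In the same order, the AP-1 motif was found in 4.46%, 4.48%, 4.2% and 4.05%, the GC box in 32.7%, 54.9%, 56.3% and 48.6%, the E-box in 6.02%, 6.82%, 8.4% and 6.76%, and the ETS motif in 6.91%, 12.3%, 9.24% and 8.78%. The tested genes are the background of both sets.

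Genes of the TGF-beta response list, named for a pathway that keeps fibroblasts mesenchymal, lay on the high side with Cdk9-DN at day 5. None of 9 tested was called, 5 had an unadjusted p under 0.05, all higher, and the median was 0.26. Of the 5 listed in all 4 libraries, 4 had non-overlapping groups with Cdk9-DN above control, a pattern that 14.2% of 4633 genes showed (23.5% showed the opposite one). Ctgf, a matricellular protein, stood at 78.6 and 75.03 against 90.4 and 93.7 FPKM (0.26, SE 0.0379, adjusted p = 0.149). Id2, which blocks basic helix-loop-helix factors, stood at 21.1 and 18.2 against 25.3 and 24.5 FPKM (0.33, adjusted p = 0.214). In both genes the lower Cdk9-DN library exceeded the higher control library.

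Cyr61, a relative of Ctgf, had 107 and 106 against 126 FPKM (1 Cdk9-DN library), and Id1, a relative of Id2, 66.1 and 66.8 against 79.7 FPKM (1 Cdk9-DN library). Tgfbi (18.7 and 15.9 against 15.9 and 16.9 FPKM) and Bmp4 did not share the direction.

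The same genes stood on the other side of control at day 10. In control cells Ctgf had 172 and 173 FPKM at day 4, more than at day 5, and 376 FPKM in 1 library of day 10, against 196 and 193 FPKM with Cdk9-DN. The day 10 difference was below that of day 5 by -1.20 for Ctgf (SE 0.0604, adjusted p = 0.000175), -1.22 for Id2 (adjusted p = 0.000365) and -1.90 for Cyr61 (0.001). The list's median was 0.16 at day 4 and -0.92 at day 10. Over all genes, 862 of 5485 (15.7%) were called for the change of the Cdk9-DN difference from day 5 to day 10, 464 (8.46%) towards higher and 398 (7.26%) towards lower values.

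**Figure D3:**
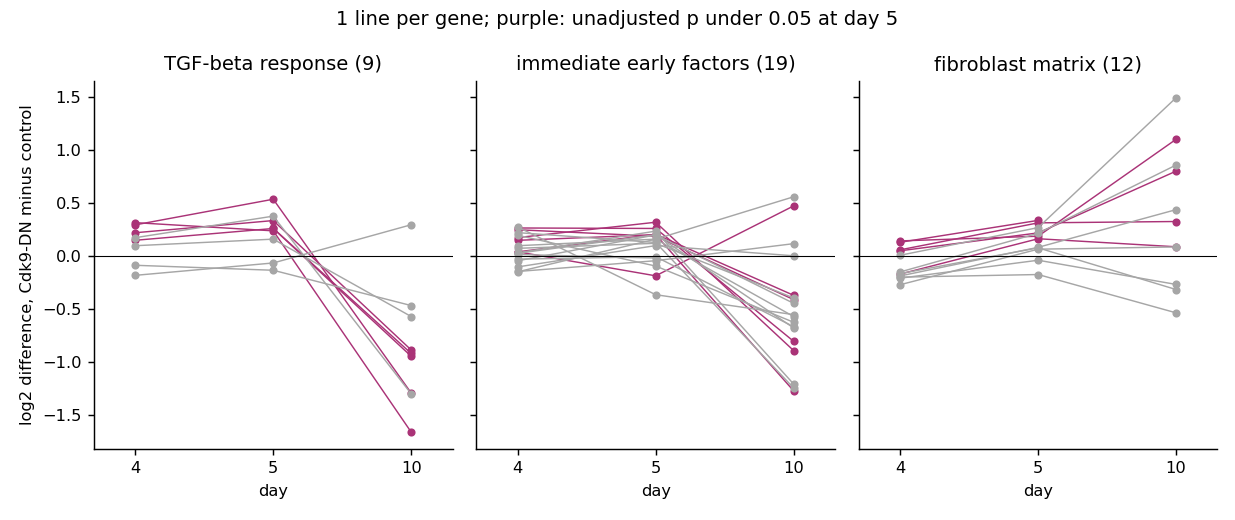
Log2 difference (vertical axis, Cdk9-DN minus control) at days 4, 5 and 10 for the members of 3 gene lists tested at day 5 (1 line per gene, number of members in parentheses). TGF-beta genes with an unadjusted p under 0.05 at day 5 (purple) lie above 0 at days 4 and 5 and below 0 at day 10, apart from Id1, which has no day 4 value.

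Immediate early factors, transcription factors and feedback regulators that cells induce within minutes of a stimulus, gave a similar picture. None of 19 tested was called, 5 had an unadjusted p under 0.05 with higher values and 1, Egr1, with lower values, and the median was 0.16. Of 12 listed in all 4 libraries, 8 had non-overlapping groups with Cdk9-DN above control. Over all 4633 genes so listed, 14.2% had this pattern and 23.5% the opposite one. Fosl2, an AP-1 subunit, stood at 14.6 and 14.4 against 18.1 and 18.5 FPKM (0.32, SE 0.0426, adjusted p = 0.175). Jun, its dimer partner, stood at 22.8 and 22.7 against 24.6 and 28.2 FPKM (0.20), Btg2, an antiproliferative factor, at 23.7 and 24.0 against 27.1 and 27.4 FPKM, and Bhlhe40, a basic helix-loop-helix repressor, at 17.2 and 16.9 against 19.3 and 20.05 FPKM. Egr1 stood at 23.1 and 24.1 against 20.6 FPKM (1 Cdk9-DN library) (-0.19). Here the groups of Fosl2, as its naming required, and of Jun, Btg2 and Bhlhe40 did not overlap. The median went from 0.04 at day 4 to -0.56 at day 10, and the change from day 5 to day 10 was called for Fosl2 (-1.21, adjusted p = 0.000734) and Bhlhe40 (-1.47, adjusted p = 0.000659). Jun and Btg2 were called as well (-0.58, adjusted p = 0.0104, for Jun).

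Matrix and surface genes of fibroblasts also lay slightly higher with Cdk9-DN. None of 12 tested was called, and 5 had an unadjusted p under 0.05, all higher. Of 9 listed in all 4 libraries, 7 had non-overlapping groups in that direction, against 14.2% of all 4633 genes so listed (23.5% in the opposite one). The median was 0.17. Gpc4, a glypican of the cell surface, stood at 70.6 and 70.8 against 83.4 and 81.1 FPKM (0.22, SE 0.0357, adjusted p = 0.202). Igfbp7, a secreted protein that binds insulin-like growth factors, stood at 74.3 and 73.7 against 89.5 and 97.6 FPKM (0.33, adjusted p = 0.436). Timp3, an inhibitor of matrix metalloproteinases, had 60.3 and 59.5 against 74.5 FPKM (1 Cdk9-DN library) (0.31). Mmp2, a metalloproteinase, went the other way, at 70.8 and 71.1 FPKM against 62.7 FPKM in 1 library. The list's median was -0.16 at day 4 and 0.32 at day 10, so that the day 4 sign was the other one. Gpc4 stood further above control at day 10, by 0.80, with the change from day 5 to day 10 called (0.58, adjusted p = 0.00133).

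All 8 mesenchymal regulators and contractile genes tested had positive differences (median 0.16), with 0 called and 2 at an unadjusted p under 0.05. Twist2 (0.04) turned negative with quantile normalization (-0.052). Cnn1, the smooth muscle calponin, had 8.47 FPKM in 1 control library and 12.2 and 11.6 FPKM with Cdk9-DN, and Snai2, a repressor of epithelial genes, 4.04 and 3.51 FPKM against 4.93 FPKM in 1 library. Only 1 of the 8 was listed in all 4 libraries. Among 13 Wnt modulators, 0 were called and 4 had an unadjusted p under 0.05, all higher, of which Gpc4 and Dkk2 also belong to the fibroblast list. Wnt4, a Wnt ligand, had 2.78 and 2.35 against 3.74 and 3.64 FPKM. Of 8 chemokines and cytokines, 0 were called. Ccl8, a chemokine for monocytes, had 1.43 and 1.63 against 2.80 and 2.75 FPKM on 5 to 11.9 implied fragments, and Ccl2, another, 37.5 and 37.7 against 41.4 and 46.2 FPKM.

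Further named genes on the high side missed the threshold as well. Ednrb, the endothelin B receptor, had 2.04 and 2.13 against 5.99 and 4.27 FPKM, a ratio of 2.46 (0.98, SE 0.133, adjusted p = 0.0614). It passed among protein-coding genes (adjusted p = 0.0173), but not with only the day 5 libraries (0.482) or with a replicate block (0.457). Without Cdk9-DN replicate 2 the difference was 1.18, and without Cdk9-DN replicate 1 it was 0.77. Penk, the enkephalin precursor, had 7.52 and 7.11 against 13.0 and 11.3 FPKM (0.66, adjusted p = 0.202), and turned to -0.80 at day 10. Krt14, a keratin of basal epithelia, had 7.34 FPKM in 1 control library and 11.1 and 10.8 FPKM with Cdk9-DN. Pef1, a calcium-binding protein, had 33.5 and 33.3 against 41.0 FPKM (1 Cdk9-DN library). All 4 genes had non-overlapping groups at day 5, which the rule that named them required.

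The 18 pluripotency genes listed in all 4 libraries summed to only 8.05 to 11.7 FPKM at day 5, and the list leaned low. It also holds Sox2, transduced in both groups and tested at 489 FPKM (control) and 501 FPKM (Cdk9-DN), 1 library each (0.03). None of 14 tested was called, 4 had an unadjusted p under 0.05, all lower, and the median was -0.10. Of the 22 listed, 7 were at 0 in every day 5 library that listed them. Nr0b1, an orphan nuclear receptor of embryonic stem cells and chosen here after its values were seen, was listed at 0 in all 4 libraries of day 4. At day 5 it stood at 1.36 and 1.06 against 0.374 and 0.351 FPKM (-0.70, SE 0.0902, adjusted p = 0.0538) on 7 to 30 implied fragments. Its groups did not overlap. At day 10 the order was the other one, with 4.29 and 3.91 against 10.4 and 11.4 FPKM, and the change was called (1.92, adjusted p = 0.000207). Gdf3, a ligand of the TGF-beta family, had 1.02 and 1.22 against 0.615 and 0.52 FPKM, and Zfp42, a zinc finger protein of stem cells, 0.228 and 0.314 against 0.0538 and 0.0883 FPKM. For Nanog, a core factor of the network, the values were 1.152 and 1.63 against 1.16 and 1.09 FPKM, and the groups overlapped.

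Of 11 epithelial genes tested 0 were called, and 2, Krt8 and Pard6b, had an unadjusted p under 0.05, both lower. Pard6b, a cell polarity protein, had 2.19 and 2.63 against 1.66 and 1.72 FPKM. The list's median was 0.02, with a sign that changed between settings, against -0.09 at day 4 and -1.27 at day 10. Krt18, the partner keratin of Krt8, had 0.853 and 0.921 against 0.574 and 0.883 FPKM at day 5, with overlapping groups, and 86.6 and 83.8 against 7.10 and 6.31 FPKM at day 10 (change of -3.35, adjusted p = 0.000111). Prss8, an epithelial serine protease, was listed at 0 in all 4 libraries of day 5 and at 21.8 and 21.9 FPKM in control at day 10.

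All 7 genes of ribosome biogenesis and Myc targets tested had negative differences of small size (median -0.12), with 0 called and 2 at an unadjusted p under 0.05. The median over all genes tested was also below 0, at -0.0245. Ddx21, a nucleolar helicase, stood at 83.99 and 84.004 against 77.4 and 74.9 FPKM (-0.14), and Rrs1, a ribosome assembly factor, at 71.2 and 69.4 against 64.7 and 64.8 FPKM (-0.12). Neither pair of groups overlapped. Their differences were positive at day 10, with called changes for both (adjusted p = 0.000933 and 4.59e-05). Of 8 interferon genes 0 were called and 7 had negative differences (median -0.21, against -0.0245 over all genes tested). Oas1a, an antiviral sensor of double-stranded RNA, had 1.08 FPKM in 1 control library and 0.179 and 0.22 FPKM with Cdk9-DN.

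**Figure D4:**
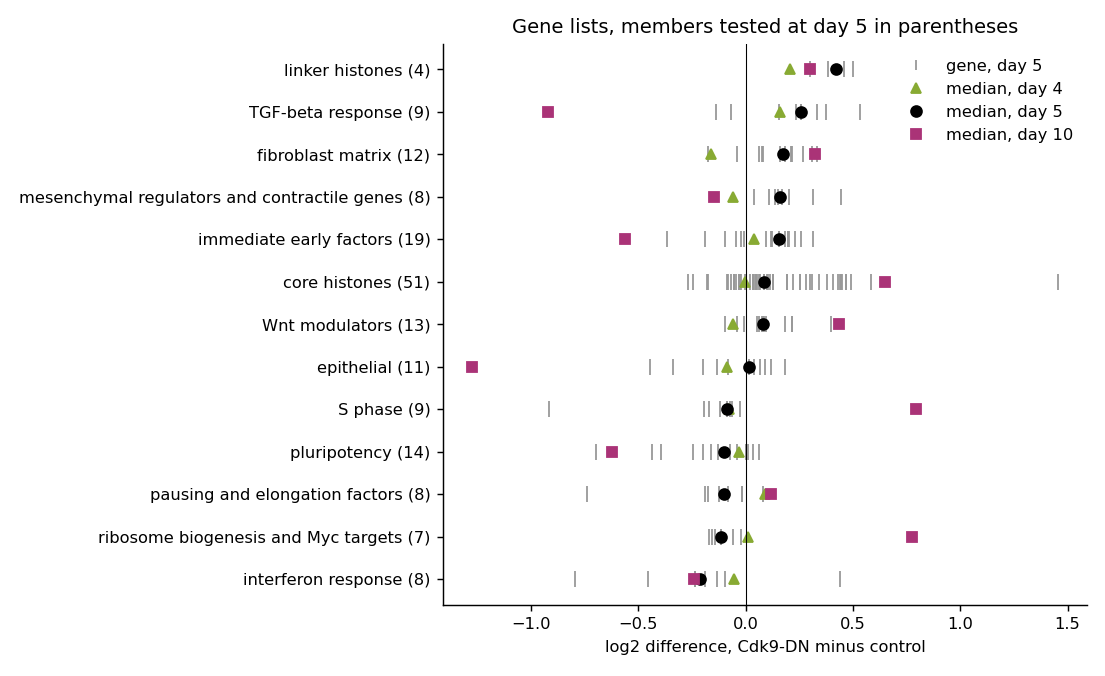
Log2 differences (horizontal axis, Cdk9-DN minus control) of list members at day 5 (grey ticks) and list medians at days 4, 5 and 10 (symbols), with the number of members tested at day 5 in parentheses. At day 5 the medians of the 13 lists shown, which are not all lists examined, lie between -0.21 and 0.42, while at day 10 the epithelial list is at -1.27 and the TGF-beta list at -0.92.

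In 8 called genes the vectors differed by a value against exact zeros. Pvrl2, the adhesion molecule nectin-2, was listed at 0 in both control libraries of day 5 and at 16.8 and 29.3 FPKM in the Cdk9-DN libraries (adjusted p = 0.00107). In the libraries of day 4 it stood at 27.5, 28.5, 30.9 and 36.3 FPKM in both vectors, and in the control library of day 3 at 53.3 FPKM. Dhrs13, a short-chain dehydrogenase, had 9.22 and 12.6 FPKM (control) and was listed at 0 in both Cdk9-DN libraries (adjusted p = 0.00174), and also at 0 in every Cdk9-DN library of days 4 and 10 that lists it. An exact 0 in such a table can be a failed estimate, and no fold is given. The other 6, which the rule for named genes passes over and which are listed after their values were seen, are an unassigned transcript on chromosome 15, a small nuclear RNA, Gm17035, 9330151L19Rik, B3gnt9-ps and Gm17246. Gm16056, the processed pseudogene without zeros, had 76.4 and 68.2 against 112 and 129 FPKM.

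Genes with an unadjusted p under 0.05 at day 5 were looked up at the other days. The libraries of those days do not enter the day 5 difference. Those of days 4 and 10 do enter the spread behind its p-value, so the choice of genes is not separate from them. Of the 186 higher genes, 177 had a value at day 4 and 125 of these (70.6%) were higher there too, against 47.2% of all genes. Of the 309 lower genes, 221 of 303 (72.9%) were lower at day 4, against 52.7% of all genes. In the single pair of day 3 the shares were 60.9% (84 of 138) and 68.0% (185 of 272), against 40.7% and 51.5% of all genes. At day 10 they were 58.1% (97 of 167) and 47.9% (140 of 292), against 49.5% and 49.3%. For the difference between the day 5 and the day 4 effect, 6 of 5694 genes (0.105%) were called and 243 (4.27%) had an unadjusted p under 0.05. Pvrl2 was the one among them that the naming rule took (4.29, adjusted p = 0.00994), and its value rests on the zeros of the day 5 control libraries.

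The control course gave a further description. Between days 4 and 10 in control cells, 28.1% of 5814 genes passed with higher values at day 10 and 21.7% with lower ones, which left 1586 and 1191 genes among the 5570 also tested at day 5. Their median differences at day 5 were -0.0326 and -0.0314, close to each other, and at day 10 they were -0.30 and 0.36. The control libraries of day 10 enter both the course and the day 10 difference, while those of day 5 enter neither the course nor that difference.

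**Figure D5:**
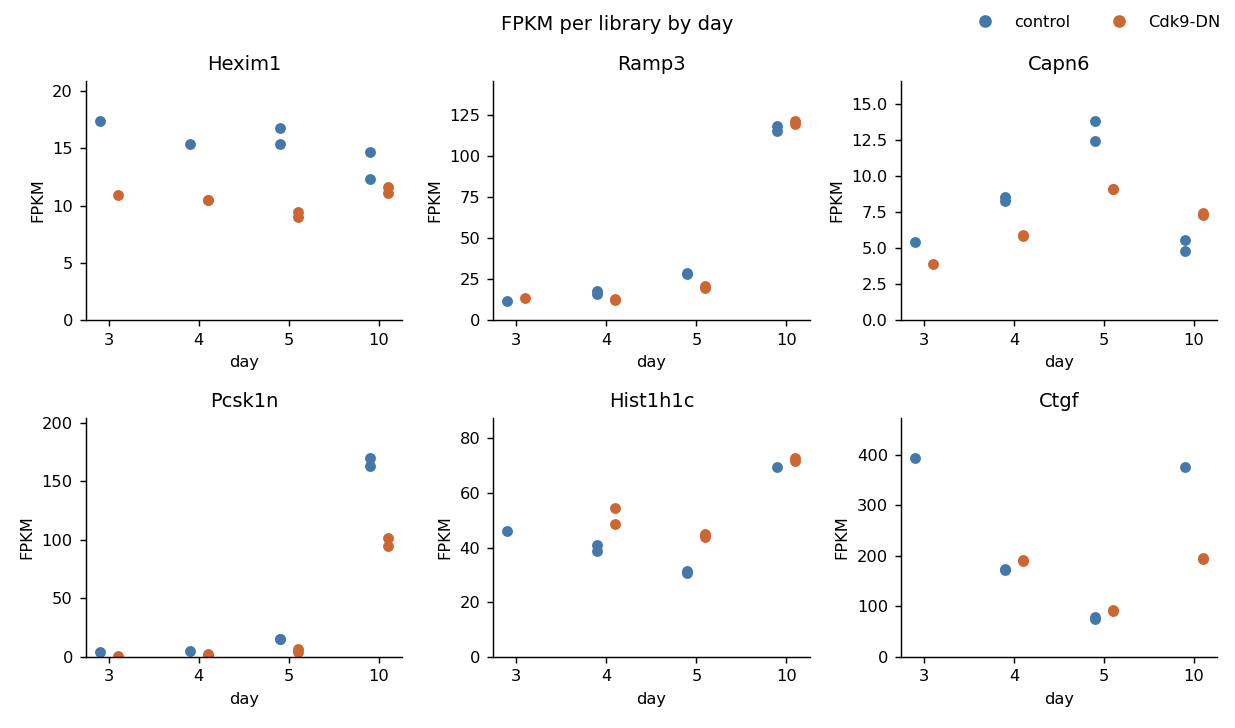
FPKM of 6 genes in each library (points, vertical axes from 0) by day for control (blue) and Cdk9-DN (orange); a missing point is a library that does not list the gene. Hexim1 is lower with Cdk9-DN on each day, whereas Ramp3 reaches 116 to 121 FPKM in the 4 libraries of day 10 and Ctgf is higher with Cdk9-DN at days 4 and 5 and lower at day 10.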

How the data were processed

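RNA sequencing libraries were processed by the submitters with CASAVA 1.8.2, TopHat2 2.0.10 and Cufflinks 2.2.1, with builds named mm9 and NCBIM37, per the submitters' processing notes. The deposited values are FPKM per gene and their confidence bounds, 1 file for each library. Entries of the 16 genes with several entries were summed, 1 entry with a failed status was left out, and a gene that a library does not list had no value there. The bounds, taken as 2 standard deviations of counting error (not tested), gave the implied fragments and depth. Genes that reached 1 FPKM in 2 or more libraries among the 12 of days 4, 5 and 10 were fitted as log2(FPKM + 1) with limma 3.58.1 in R 4.3.3 (6 group means, intensity trend, at least 2 residual degrees of freedom, 1.13 prior degrees of freedom). P-values are two-sided and Benjamini-Hochberg adjusted across every gene a contrast tests, and genes with an adjusted p under 0.05 were called. For a gene that a single library of a group lists, the spread comes from the other groups. The procedure was also run on simulated data with normal noise, whose outcome is not given here. That run does not bear on calls that rest on exact zeros.

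The members and gene lists were chosen with earlier results of these data known. Named genes were the called genes with the highest and lowest differences, non-overlapping groups and a mean of at least 5 FPKM, filled up to 10 per direction with the lowest p-values, up to 2 members of highest mean per list without calls, and 10 genes named in advance. Unnamed gene models, small RNA genes and pseudogenes were counted only. Further members of lists, such as Id2, Btg2, Cnn1, Wnt4, Ccl8 and Oas1a, were named after their values were seen. A gene that the rule named and a list member are not reported here. Gene types came from GENCODE M21, which held 83.5% of the identifiers. Promoter windows were found for 2211 of the 5902 genes tested, by symbol or synonym in RefSeq tables of GRCm38.p6; the window of Ctgf was not used here. Tables were handled with Python and pandas.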

Additional observations from a re-analysis of the deposited data

Results flagged for a closer look

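The effect of Cdk9-DN at day 5 was set against its effect at days 4 and 10 by a test of the difference, and 38 named results passed. Values are log2 differences of the later effect minus the earlier one, and the day 5 libraries that chose some of these genes enter the test again.

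Against day 4, the day 5 effect differed for Pvrl2 (4.29, adjusted p = 0.00994), whose control libraries of day 5 were both listed at 0.

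Against day 5, the day 10 effect lay higher for genes that had lower values with Cdk9-DN than with control at day 5: Ramp3 (0.51, adjusted p = 0.00653), Hexim1 (0.52, adjusted p = 0.0413), Capn6 (0.92, adjusted p = 0.00244), Marcksl1 (0.48, adjusted p = 0.0183) and Shisa3 (1.68, adjusted p = 0.000334). It lay lower for genes that had higher values with Cdk9-DN at day 5: Hist1h1c (-0.45, adjusted p = 0.0293), Ctgf (-1.20, adjusted p = 0.000175), Fosl2 (-1.21, adjusted p = 0.000734), Penk (-1.45, adjusted p = 0.00211), Pef1 (-0.84, adjusted p = 0.000933), Cyr61 (-1.90, adjusted p = 0.001) and Junb (-0.73, adjusted p = 0.0133).

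The day 10 effect was also the lower one for genes whose day 5 differences had either sign or were near 0: Krt18 (-3.35, adjusted p = 0.000111), Cldn3 (-1.74, adjusted p = 0.00592), Cldn5 (-1.08, adjusted p = 0.00126), Sfn (-0.86, adjusted p = 0.00366), Atp1b1 (-3.04, adjusted p = 0.00369), Prss8 (-4.51, adjusted p = 7e-06), Alox15 (-3.16, adjusted p = 7.42e-05) and Eif2c2 (-7.43, adjusted p = 0.0339). For Prss8 and Alox15 the day 5 libraries were at 0 or nearly so, and for Eif2c2 a single Cdk9-DN library, at 26.4 FPKM, made the day 5 value. At day 10 Eif2c2 was listed at 0 in both Cdk9-DN libraries, and Prss8 at 0 in the 1 Cdk9-DN library that lists it. Hspb8, a small heat shock protein, and Plaur, the urokinase receptor, also moved down (-0.93, adjusted p = 0.000899, and -1.40, adjusted p = 0.00623).

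Higher effects at day 10 were called for Gpc4 (0.58, adjusted p = 0.00133), Ccl2 (0.84, adjusted p = 0.00202), Gap43 (1.06, adjusted p = 0.004), Nefl (2.35, adjusted p = 4.59e-05), Foxd1 (2.90, adjusted p = 0.00432), Klk14 (3.17, adjusted p = 0.00167) and Pde12 (3.59, adjusted p = 2.49e-05). Pde12 was listed at 0 in both control libraries of day 10. Klk14 was listed at day 10 by only 1 control library, at 0, and 1 Cdk9-DN library, at 7.21 FPKM. Also called with higher effects at day 10 were Mcm3 (1.14, adjusted p = 0.000675), Mcm2 (1.19, adjusted p = 0.00239), Birc5 (0.60, adjusted p = 0.0486), Nhp2 (1.0003, adjusted p = 0.026), Leo1 (0.54, adjusted p = 0.0254), Spry2 (0.42, adjusted p = 0.0431), Mt1 (0.96, adjusted p = 0.008) and Mt2 (1.34, adjusted p = 0.0095).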

How the results depend on the processing

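At day 5 the count of 10 called genes stayed within 1.5 times under 7 of the 9 planned settings other than leaving out 1 library, the exceptions being 24 with no filter on low values (12597 genes, all 10 among them) and 3 with a replicate block. A fit of the 4 day 5 libraries alone called 7 genes, 1 of them among the 10. Leaving out 1 day 5 library gave 9 to 19 calls, with 16 without control replicate 1 (6 of the 10 kept), 14 without control replicate 2 and 19 without Cdk9-DN replicate 2 (7 kept). Settings chosen after seeing the data gave 0 without genes at 0 in a day 5 library, 8 among protein-coding genes and 5 with both. Deviations of same-numbered libraries correlated at 0.015, 0.055 and -0.021 at days 4, 5 and 10. These values cannot show whether same-numbered libraries share a culture or batch, which the labels do not state. The replicate block also gave 4 calls for the day 5 minus day 4 effect (6 without it). For the day 10 minus day 5 effect it gave 243 (862 without it). Leaving out 1 day 5 library gave 8 to 15 and 488 to 555 calls for these, and each of the 4 libraries lowered the latter by over 1.5 times.

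No named gene that passed in any setting changed sign, although Eif2c2 was at 0 without Cdk9-DN replicate 2, while 13 values lost and 9 gained the call. List medians printed here moved beyond the spread between libraries as follows. With a pseudocount of 0.1 they were -0.25 (pluripotency), 0.10 (epithelial) and 0.58 (linker histones). With at least 5 FPKM they were 0 (pluripotency) and -0.0576 (epithelial), and with the replicate block -0.15 (pluripotency) and -0.0158 (pausing). Rescaled on genes of at least 300 bases they were 0.21 (fibroblast matrix), 0.18 (immediate early) and -0.0792 (ribosome biogenesis). Without genes at 0, over all or protein-coding genes, they were -0.20 (pluripotency) and -0.11 (epithelial). The interferon median moved in 9 of 16 settings (-0.35 to -0.0630). Leaving out 1 library gave -0.0831 to -0.0308 (pausing), -0.14 to -0.0505 (pluripotency), -0.0625 to 0.0488 (epithelial), 0.12 to 0.19 (fibroblast matrix), 0.0829 to 0.22 (immediate early), 0.41 to 0.51 (linker histones), 0.0272 to 0.26 (core histones) and -0.16 to -0.0363 (S phase). The cause of these shifts was not tested. Values under about 1 FPKM rest on few fragments.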

Other observations

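Small RNA genes were tested with the others and are counted here. Of 189 snoRNA genes, 0 were called with limma and 15 had an unadjusted p under 0.05. Of 146 miRNA genes, 0 were called and 5 had an unadjusted p under 0.05. Their log2 differences had a standard deviation of 2.56 and 1.93 over genes, against 0.322 over 2736 protein-coding genes. Mir5105, the highest gene of the day 5 libraries, stood at 52420 and 243870 FPKM (control) and 145947 and 132663 FPKM (Cdk9-DN).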
